A study of Mus musculus with 2 samples.

Results

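The genes described here are 10 mouse genes for the subunits of the transcription factor NF-κB and for proteins of the IκB family. They were taken by symbol, as the family, with earlier results of these data known, and all 10 were found in both expression tables, among 35522 features. Subunit genes are Nfkb1, Nfkb2, Rel, Rela and Relb. Cytoplasmic inhibitors are encoded by Nfkbia (IκBα), Nfkbib (IκBβ) and Nfkbie (IκBε), and Nfkbiz (IκBζ) and Bcl3 encode IκB proteins of the nucleus.

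Neutrophils were sorted from mouse bone marrow by CD11b, high Ly6G and low or absent Ly6C, and were cultured in medium that held GM-CSF, a myeloid growth factor, at 10 ng/ml. One culture (PBS) received PBS and the other (exosome) received 20 μg/ml of tumor exosomes, both for 3 days. CT26, a mouse colon carcinoma line, was the source of the exosomes, after growth as spheroids; such spheroid cells are called sphere-derived cancer stem cells, or SDCSCs. Immune cells of the study came from Balb/C mice a few weeks old. Pooling of animals is not given in the sources used here. There was 1 RNA library for each treatment, so no value below has a spread between replicates and no test between the treatments could be made.

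NF-κB proteins bind DNA as pairs of subunits. In a resting cell the cytoplasmic IκB proteins hold these pairs out of the nucleus. When receptors of microbial products, foreign RNA, tumor necrosis factor or interleukin-1 fire, the IκB kinase (IKK) marks IκB for destruction and the pairs enter the nucleus. The genes of several IκB proteins and subunits are themselves known targets of NF-κB, IκBα being the classic case of an inhibitor made anew to end the response. In neutrophils the pathway governs inflammatory cytokines and the length of life of the cell. The study asked how SDCSC exosomes switch on interleukin-1β in neutrophils and placed NF-κB in that route, which makes the RNA of its subunits and inhibitors a matter of interest. At the protein level, the paper reported less IκBα and more of the Rela protein p65 in the nucleus of neutrophils given SDCSC exosomes. RNA levels do not show how much of a protein is present or how much is in the nucleus.

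Promoters were read first, because κB sites near the start of a gene are the known means by which NF-κB acts on its own family. RefSeq promoter windows, which hold 250 bases before and 50 after a transcript start on GRCm38.p6, were found for 7 of the 10 genes (Nfkb2, Rel, Rela, Nfkbia, Nfkbib, Nfkbie and Bcl3). Both strands were searched for the κB consensus and for a looser form, GGG and CC with any 5 bases between them, which takes in every consensus match. A consensus match stood in a window of 5 of these 7 genes, against 5.14% of all 27025 genes with a window and 6.35% of those that were also kept in the expression tables. The looser letters stood in 53.5% of all genes with a window and in 72.7% of those also kept, and so say little. A match is a run of letters and was not tested for binding.

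Windows of 3 genes with a match and both genes without one are printed below, 5′ to 3′ on the strand of the gene, with consensus matches in capitals. They are Nfkbia (chr12:55492598-55492897, minus strand), the most upstream of 3 listed starts of Nfkb2 (chr19:46304487-46304786, plus strand), Bcl3 (chr7:19822706-19823005, minus strand), Rela (chr19:5637291-5637590, plus strand) and Nfkbib (chr7:28766595-28766894, minus strand).
Nfkbia: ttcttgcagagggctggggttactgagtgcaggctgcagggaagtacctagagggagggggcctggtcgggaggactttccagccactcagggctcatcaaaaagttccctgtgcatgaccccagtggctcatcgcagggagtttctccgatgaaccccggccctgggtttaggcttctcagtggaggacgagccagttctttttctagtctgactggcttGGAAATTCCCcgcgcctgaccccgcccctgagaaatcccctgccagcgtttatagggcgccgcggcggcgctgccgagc
Nfkb2: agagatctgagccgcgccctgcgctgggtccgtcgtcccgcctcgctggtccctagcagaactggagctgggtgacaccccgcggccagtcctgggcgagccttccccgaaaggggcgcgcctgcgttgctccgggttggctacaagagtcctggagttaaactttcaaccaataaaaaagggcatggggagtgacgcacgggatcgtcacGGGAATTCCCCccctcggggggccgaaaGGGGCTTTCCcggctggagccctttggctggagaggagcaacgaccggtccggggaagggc
Bcl3: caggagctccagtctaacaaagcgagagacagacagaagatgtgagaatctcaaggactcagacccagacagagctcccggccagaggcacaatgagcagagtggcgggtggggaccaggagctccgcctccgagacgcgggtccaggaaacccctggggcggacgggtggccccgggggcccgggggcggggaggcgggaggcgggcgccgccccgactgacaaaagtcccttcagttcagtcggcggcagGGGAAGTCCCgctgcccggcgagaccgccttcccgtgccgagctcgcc
Rela: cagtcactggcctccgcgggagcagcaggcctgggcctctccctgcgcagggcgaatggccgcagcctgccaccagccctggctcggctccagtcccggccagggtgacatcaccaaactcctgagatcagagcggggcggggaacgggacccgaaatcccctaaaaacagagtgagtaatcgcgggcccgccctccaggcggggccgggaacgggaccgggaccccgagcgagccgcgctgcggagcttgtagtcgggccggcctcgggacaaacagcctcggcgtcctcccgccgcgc
Nfkbib: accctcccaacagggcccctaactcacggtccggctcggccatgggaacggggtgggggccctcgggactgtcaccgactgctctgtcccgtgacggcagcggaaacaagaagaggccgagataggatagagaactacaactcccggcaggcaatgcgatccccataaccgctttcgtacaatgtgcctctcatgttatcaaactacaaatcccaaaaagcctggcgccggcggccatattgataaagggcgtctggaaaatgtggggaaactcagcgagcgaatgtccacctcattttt
The Nfkbia match began 29 bases before the start. Nfkb2 held matches 39 and 11 bases before its first listed start. Starts here are those of the windows and can differ from the ends of the gene spans given below. The span of Nfkb2 begins further upstream, at 46300994. In Bcl3 the match lay just past the start. In the windows of the remaining genes, Rel held GGGAAATCCCC, which began 92 bases before the start, and Nfkbie held GGGGGATTCC, which began 106 bases before it. Nfkb1, Relb and Nfkbiz had no entry.

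Levels are given in RPKM as deposited, a read density corrected for transcript length and library size. Genes that reached 0.25 RPKM in both libraries were kept. A kept gene was called higher where exosome RPKM was 2 or more times PBS RPKM, and lower where PBS RPKM was 2 or more times exosome RPKM, after the rule of the study. Of 9698 genes kept, 31.5% were called higher and 5.62% lower. All 10 genes passed the filter. Nfkb1, Nfkb2, Relb, Nfkbia and Nfkbib were called higher (5 of 10), and 0 of 10 were called lower. The median log2 ratio of the 10 genes was 1.03, against 0.53 for all genes kept. The count of higher genes depended on how the libraries were scaled to each other. It was 0 of 10 when the median log2 ratio of all genes was set to 0, where 16.8% of all genes were higher and 13.2% lower, and 0 of 10 with a trimmed mean taken off, where 16.5% were higher and 13.6% lower. It was 3 of 10 when the centring followed the level of expression (12.6% and 13.6%) and 3 of 10 with S100a8 and S100a9 left out of the total (25.8% and 7.43%). After rescaling to TPM it was 6 of 10, with 33% of all genes higher and 5.16% lower. It stayed at 5 of 10 with an RPKM of at least 1 required (25.6% and 5.34% of 7644 genes), with a pseudocount of 1 (20.4% and 4.12%), with a pseudocount of 0.25 and no filter (8.57% and 1.57% of 35522 features), and with the whole counting interval past 2-fold (26.1% and 4.8% of 8895 genes). All 10 genes passed the filter at 1 RPKM, which thus could not change the count. At 4-fold the count was 0 of 10, against 8.52% of all genes higher and 1.14% lower. Orders among the 10 genes and ratios within one library, given further on, are the same under any scaling that multiplies a whole library by 1 factor. Level-dependent centring is not of that kind and changes both.

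The libraries themselves differed in make-up. Their depth, estimated from the smallest RPKM values, was 66.0 M mapped reads (megareads) for PBS and 79.1 M for exosome. All 10 of the neutrophil markers examined were at least 2-fold lower in the exosome library, their summed RPKM being 83740 in PBS and 29854 in exosome, while all 10 monocyte and macrophage markers had more RPKM in exosome, with sums of 164 and 461 RPKM, and 4 of the 6 kept were called higher. Among the monocyte and macrophage markers, Emr1 had 20.91 and 151.51 RPKM in PBS and exosome, and C1qc 0.27 and 3.79 RPKM. Csf1r had 58.1 and 152.64 RPKM, and Cd68, which was not called, 83.91 and 145.79 RPKM. Under median centring 3 of the 6 stayed called higher, and Csf1r lost its call. Of 6 B cell markers 0 were called lower, with sums of 110 and 68.0 RPKM, though all 6 were past 2-fold lower under median centring, and Cd3d alone made 56.44 of the 58.7 RPKM of T cell markers in PBS, against 7.02 in exosome. Carcinoma and epithelial markers summed to less than 1 RPKM in each library. Other blood cells also express NF-κB genes, and the part of these differences in the values below was not tested. Less RNA per cell and fewer cells of a type cannot be told apart in bulk RNA.

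**Figure D1:**
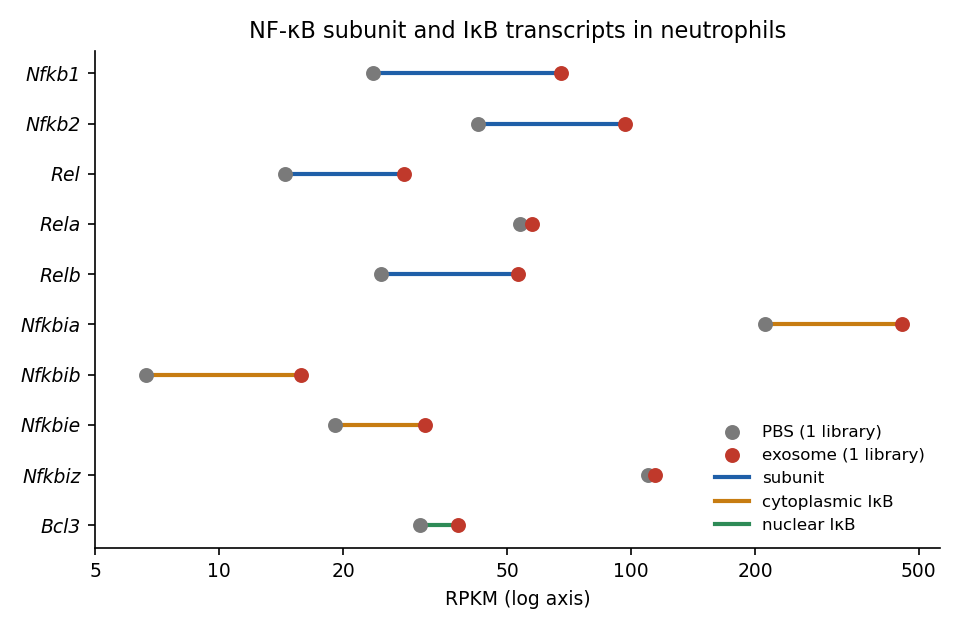
RPKM of the 10 genes in the PBS library (grey) and the exosome library (red) on a log axis, 1 library each, with lines coloured by the role of the protein. Points lie close together for Rela, Nfkbiz and Bcl3 and far apart for Nfkb1, Nfkb2, Relb, Nfkbia and Nfkbib.

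Among the subunits, Nfkb1 differed most. It encodes p105, the precursor of p50, a subunit that binds DNA but cannot activate transcription by itself. Nfkb1 (chromosome 3, 135584655 to 135691969, minus strand, GRCm38.p6) stood at 23.69 RPKM in PBS and 67.46 RPKM in exosome, a ratio of 2.85. The log2 ratio was 1.51, with a 95% counting interval of 1.47 to 1.55. Such intervals rest on estimated reads, here 6483 and 22143, and cover counting error only. In the order of all features by RPKM, Nfkb1 moved from place 1956 in PBS to place 809 in exosome.

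Nfkb2 encodes p100, the precursor of p52 and the central protein of the noncanonical arm of the pathway. Nfkb2 (chromosome 19, 46300994 to 46312400, plus strand) had 42.4 RPKM in PBS and 96.51 RPKM in exosome, a log2 ratio of 1.19 (counting interval 1.15 to 1.22). It was the highest of the subunit genes in the exosome library. Its annotated span overlaps Psd, which was low at 1.83 and 2.74 RPKM.

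Relb, the subunit that pairs chiefly with p52, showed a similar ratio. Relb (chromosome 7, 19606217 to 19629438, minus strand) stood at 24.7 RPKM in PBS and 53.13 RPKM in exosome, a log2 ratio of 1.11 (counting interval 1.06 to 1.15). Rel, which encodes the activating subunit c-Rel of blood cells, lay at the edge of the rule. Rel (chromosome 11, 23736847 to 23770969, minus strand) had 14.42 RPKM in PBS and 28.05 RPKM in exosome, a ratio of 1.95. At that ratio Rel was not called, and the counting interval of its log2 ratio of 0.96, 0.92 to 1.0002, includes the 2-fold limit. Rel was the lowest subunit gene in both libraries.

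Rela encodes p65, the activating subunit of the most common pair, p50 with p65. Rela (chromosome 19, 5637442 to 5648134, plus strand) stood at 53.73 RPKM in PBS and 57.48 RPKM in exosome. The ratio was 1.07 and the log2 ratio 0.10 (counting interval 0.06 to 0.14), and the sign turned under median centring (-0.43), the trimmed mean (-0.44), level-dependent centring (-0.0005) and without S100a8 and S100a9 (-0.08). In the order by RPKM Rela held place 965 in PBS and place 982 in exosome. Rela was thus the highest of the 5 subunit genes in PBS and stood below Nfkb2 and Nfkb1 in exosome.

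Inhibitor genes of the cytoplasm were led in level by Nfkbia, whose protein IκBα holds p65 pairs in the cytoplasm. Nfkbia (chromosome 12, 55489409 to 55492647, minus strand) had 211.03 RPKM in PBS and 454.95 RPKM in exosome, a log2 ratio of 1.11 (counting interval 1.09 to 1.13). It was the highest of all 10 genes in both libraries and moved from place 203 of all features to place 70. Nfkbib, which encodes the more slowly renewed inhibitor IκBβ, was the lowest of the 10. Nfkbib (chromosome 7, 28758251 to 28766644, minus strand) stood at 6.65 RPKM in PBS and 15.81 RPKM in exosome. Its log2 ratio was 1.25, with a wider counting interval of 1.14 to 1.36 that reflects 904 and 2578 estimated reads. Nfkbie, which encodes IκBε, did not reach 2-fold. Nfkbie (chromosome 17, 45555700 to 45563169, plus strand) had 19.08 RPKM in PBS and 31.55 RPKM in exosome, a log2 ratio of 0.73 (counting interval 0.67 to 0.78).

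For each of the nuclear IκB genes, the deposited levels in the 2 libraries were close. IκBζ is a coactivator needed for a subset of NF-κB targets. Nfkbiz (chromosome 16, 55811375 to 55838954, minus strand) had 109.75 RPKM in PBS and 114.68 RPKM in exosome, a log2 ratio of 0.06 (counting interval 0.04 to 0.09). Bcl3, whose protein joins p50 or p52 pairs on DNA, had 30.81 RPKM in PBS and 37.91 RPKM in exosome (chromosome 7, 19808462 to 19822824, minus strand). Its log2 ratio was 0.30 (counting interval 0.24 to 0.36). Under median centring the values became -0.46 for Nfkbiz and -0.23 for Bcl3, under the trimmed mean -0.48 and -0.24, and without S100a8 and S100a9 -0.11 for Nfkbiz. Nfkbid, which encodes the nuclear IκBNS and is not among the 10, stood at 56.32 RPKM in PBS and 51.02 RPKM in exosome.

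Ordered by log2 ratio, the genes ran Nfkb1, Nfkbib, Nfkb2, Nfkbia, Relb, Rel, Nfkbie, Bcl3, Rela and Nfkbiz. Of the 9 pairs of neighbours in that order, 6 differed by more than counting error. Intervals of the difference included 0 for Nfkbib against Nfkb2 (0.06 on the log2 scale, -0.05 to 0.18), for Nfkbia against Relb (0.003, -0.05 to 0.05) and for Rela against Nfkbiz (0.03, -0.01 to 0.08). Under level-dependent centring Nfkbib moved behind Nfkb2, Nfkbia and Relb, and Rela behind Nfkbiz. In the deposited values the widest step between neighbours, 0.43 (0.34 to 0.51), parted Nfkbie from Bcl3. All 5 genes called higher lay above it, whereas both nuclear IκB genes and Rela lay under it. Genes with a consensus match in the promoter window ran from a log2 ratio of 0.30 (Bcl3) to 1.19 (Nfkb2). Of the 2 genes without a match, Rela had 0.10 and Nfkbib 1.25. With 3 genes lacking a window, a relation between the order and the promoter letters was not tested.

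**Figure D2:**
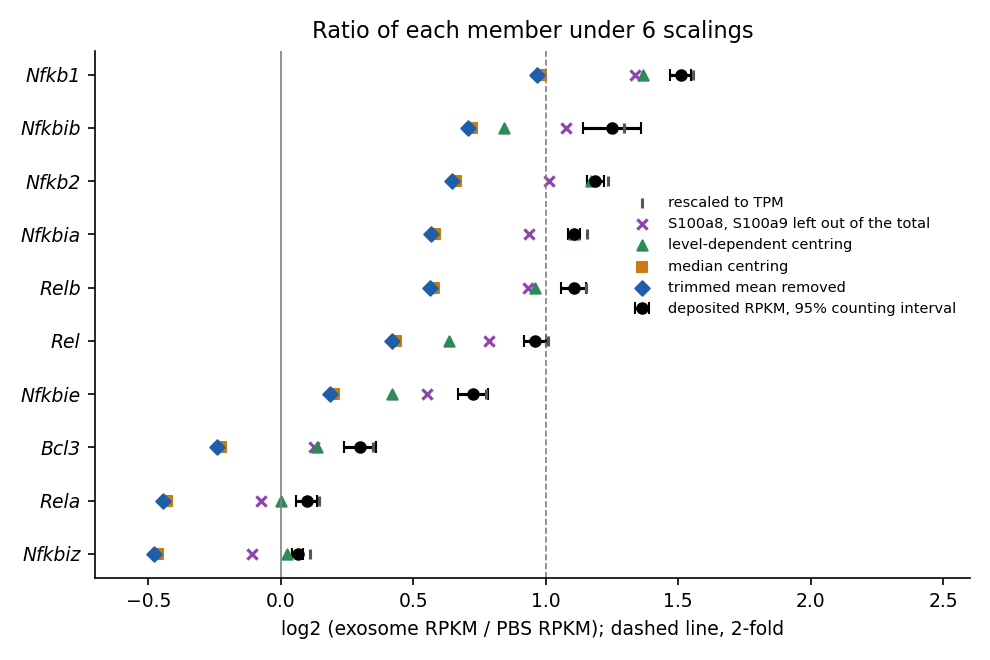
Log2 ratio of exosome to PBS RPKM for each gene, in order, as deposited (black, with 95% counting interval) and under 5 other scalings. Median centring and the trimmed mean leave Nfkb1 at 0.98 and 0.97 and every other gene further below the dashed 2-fold line, with Bcl3, Rela and Nfkbiz under 0.

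Ratios also depended on the level of expression across the whole table, and this bears on how the 10 genes compare with others. Bounds of level were set after the values were seen. Of 4231 genes with a geometric mean under 5 RPKM, 46.6% were at least 2-fold higher in exosome. From 5 to 20 RPKM, where Nfkbib lies, 25.4% of 3083 genes were higher. From 20 to 60 RPKM, where 6 of the 10 genes lie, 13.7% of 1507 genes were higher and the median log2 ratio was 0.20. Among those 6, Nfkb1 and Relb were higher. At 60 RPKM and above, 10.8% of 877 genes were higher with a median of 0.002, and Nfkb2 and Nfkbia were higher there while Nfkbiz was not. After a running median over 500 genes of similar level was removed, the log2 ratios were 1.37 for Nfkb1, 1.17 for Nfkb2 and 1.11 for Nfkbia, and these 3 stayed past 2-fold. Relb then had 0.96, Nfkbib 0.84, Rel 0.63, Nfkbie 0.42, Bcl3 0.14, Nfkbiz 0.02 and Rela -0.0005.

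**Figure D3:**
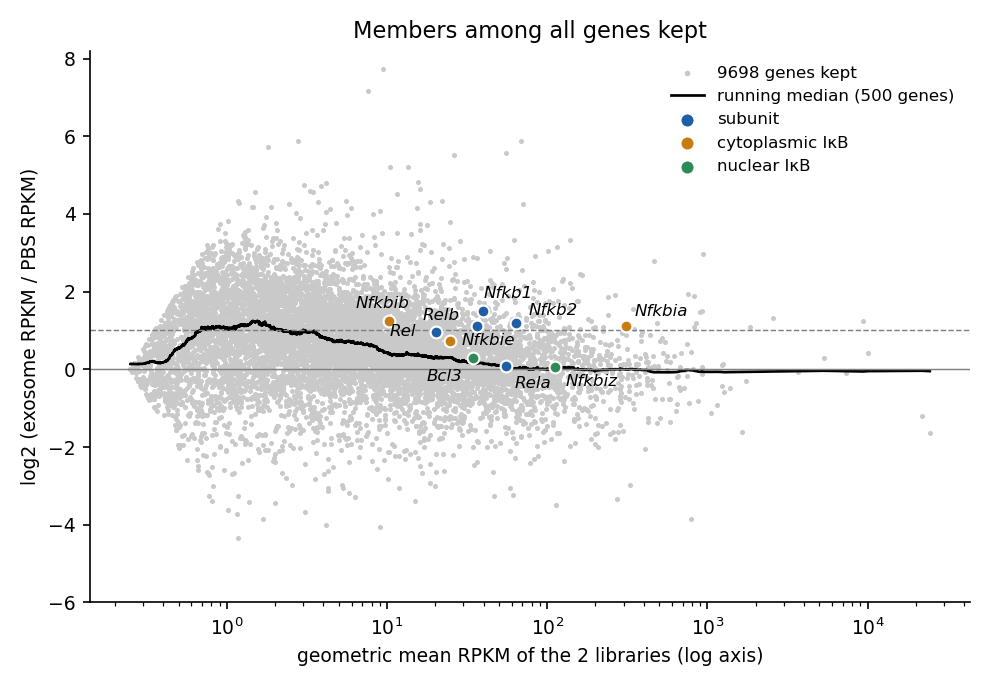
Log2 ratio of exosome to PBS RPKM against the geometric mean RPKM (log axis) for 9698 genes kept, with a running median in black and the 10 genes coloured by role. Nfkb1, Nfkb2, Relb, Nfkbia, Nfkbib, Rel, Nfkbie and, by a little, Bcl3 lie above the running median at their level. Rela and Nfkbiz lie on it.

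Within one library, the ratio of one gene to another is free of any factor applied to that whole library. In PBS, Rela made 33.8% of the summed RPKM of the 5 subunit genes, Nfkb2 26.7%, Relb 15.5%, Nfkb1 14.9% and Rel 9.07%. In exosome the order was Nfkb2 with 31.9%, Nfkb1 with 22.3%, Rela with 19.0%, Relb with 17.6% and Rel with 9.27%. Rela lost share, Nfkb1 and Nfkb2 gained it, and Rel kept nearly the same. The sum itself was 158.94 RPKM in PBS and 302.63 RPKM in exosome, a ratio of 1.90.

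For each RPKM of Rela there was 0.441 RPKM of Nfkb1 in PBS and 1.17 RPKM in exosome. That is a 2.66-fold difference (log2 1.41, counting interval 1.36 to 1.47), and Nfkb1 passed from below Rela to above it. Relb over Rela went from 0.460 to 0.924, a 2.01-fold difference (log2 1.01, 0.95 to 1.07). Rel over Rela went from 0.268 to 0.488, or 1.82-fold. Partners of the noncanonical arm kept closer together, since Nfkb2 over Relb was 1.72 in PBS and 1.82 in exosome (log2 change 0.08, 0.03 to 0.14). The genes of both precursor subunits, Nfkb1 and Nfkb2, together stood at 0.712 of the sum of Rel, Rela and Relb in PBS and at 1.18 in exosome.

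Cytoplasmic IκB genes and subunit genes were then compared as sums. The cytoplasmic IκB genes summed to 236.76 RPKM in PBS and 502.31 RPKM in exosome, and Nfkbia made 89.1% and 90.6% of these sums. Set against the subunits, the IκB sum was 1.49 in PBS and 1.66 in exosome, a 1.11-fold difference (log2 0.16, counting interval 0.13 to 0.18). This small difference rested on Nfkbia, for without it the log2 change was -0.05 (-0.10 to 0.005). With the nuclear IκB genes Nfkbiz and Bcl3 added to the IκB sum, whose proteins act on DNA-bound pairs or as coactivator, the log2 change turned to -0.13. Against Rela alone, however, Nfkbia went from 3.93 to 7.91 RPKM per RPKM, a 2.02-fold difference (log2 1.01, 0.97 to 1.06), and against Nfkbiz from 1.92 to 3.97. These are ratios of RNA and give no amounts of protein.

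**Figure D4:**
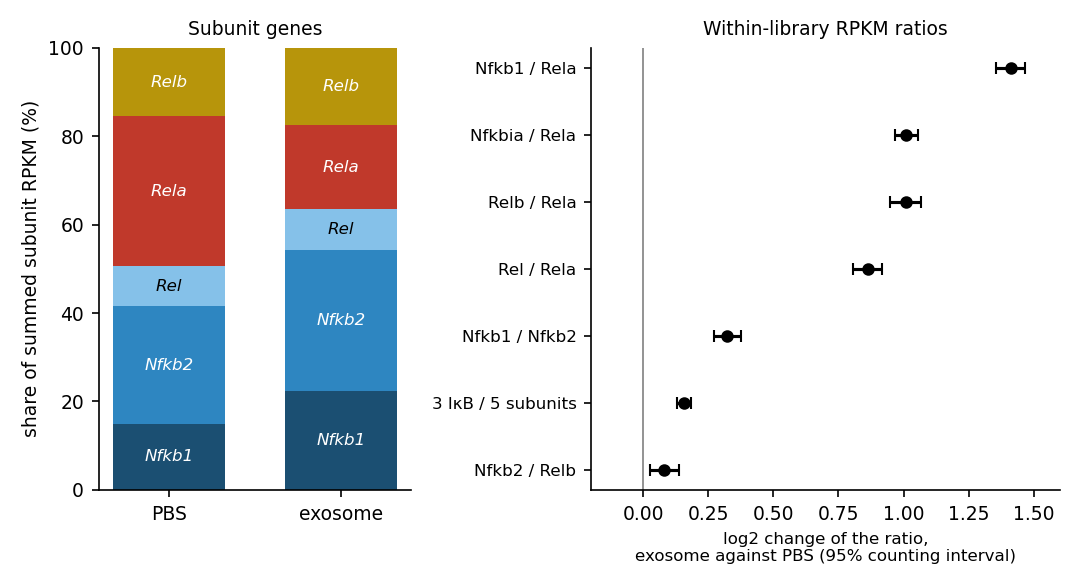
Left, share of each subunit gene in the summed subunit RPKM of each library (bars from 0 to 100%). Right, log2 change of ratios formed within a library, exosome against PBS, with 95% counting intervals; of the 7 ratios drawn, Nfkb1 over Rela changed most (1.41) and Nfkb2 over Relb least (0.08).

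The other genes of the pathway were read from lists, to see where the 10 genes stand within it. Of 63 such genes 57 were kept, 15 of them were higher and 2 lower, and their median log2 ratio was 0.42, against 31.5% higher and a median of 0.53 over all genes kept. Under median centring 6 of the 57 were higher (Ikbke, Nfatc2, Tnf, Tnip1, Sod2 and Csf3) and 6 lower. Over all genes kept, 16.8% were then higher and 13.2% lower. The calls of Map3k7, Birc3, Tnfrsf1b, Rbx1, Ube2d1 and Il1b, given next, were lost under median centring. The lists were chosen with earlier results of these data known.

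Kinases upstream of IκB moved unequally. Of 9 genes of the IKK complex and related kinases, 2 were higher and 1 was lower, against 31.5% and 5.62% of all genes kept. The catalytic subunits were not called, with Chuk (IKKα) at 11.73 and 21.22 RPKM and Ikbkb (IKKβ) at 15.6 and 23.22 RPKM in PBS and exosome. Ikbkg, which encodes the scaffold NEMO, was lower, at 47.37 RPKM in PBS and 16.69 RPKM in exosome, a log2 ratio of -1.50 (counting interval -1.54 to -1.47). Ikbkg overlaps G6pdx, which stood at 38.52 and 76.95 RPKM, and how reads in the overlap were assigned is not given in the sources used here. Ikbke, which encodes the IKK-related kinase IKKε, was higher, at 19.58 RPKM in PBS and 197.93 RPKM in exosome, a ratio of 10.1. Its partner kinase gene Tbk1 stood at 39.75 and 46.29 RPKM. Map3k7, which encodes the IKK-activating kinase TAK1, was the other gene called higher (5.43 and 13.73 RPKM).

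In the noncanonical arm, 2 of 9 genes kept were higher and 0 were lower, again against 31.5% and 5.62% of all genes kept. Map3k14, which encodes the NF-κB-inducing kinase NIK that drives p100 processing, stood at 10.79 and 11.82 RPKM. Among the proteins that keep NIK low, Traf2 had 8.46 and 10.84 RPKM, Traf3 13.31 and 25.5 RPKM, and Birc2 13.76 and 11.22 RPKM, none of them called. Birc3, a known NF-κB target as well, was higher, at 63.07 and 149.27 RPKM (log2 ratio 1.24). Tnfrsf1b, which encodes a receptor for tumor necrosis factor, was the other gene called (136.04 and 287.16 RPKM). Of 8 genes for the ubiquitin ligase that marks IκB and its E2 enzymes, Rbx1 and Ube2d1 were called higher, with log2 ratios of 1.14 and 1.31. This share too is not above the 31.5% of all genes kept. The substrate receptor genes of that ligase were not called, with Btrc at 1.11 and 1.24 RPKM and Fbxw11 at 12.03 and 20.77 RPKM.

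NFAT proteins share the Rel type of DNA-binding domain. Of their 5 genes 4 were kept and 1, Nfatc2, was higher, at 0.47 RPKM in PBS and 4.3 RPKM in exosome. Over all genes kept, 31.5% were called higher.

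Of 30 textbook targets of NF-κB 26 were kept, and of these 9 were higher, 1 was lower and 16 stayed within 2-fold, with a median log2 ratio of 0.62. Under median centring 4 of the 26 were higher and 4 lower, against 16.8% and 13.2% of all genes. Level-dependent centring left 7 of the 26 higher and 2 lower, against 12.6% and 13.6% of all genes. As deposited, the share of targets called higher, 9 of 26, lies near the 31.5% of all genes. Past 4-fold were Sod2 (superoxide dismutase of mitochondria; 30.38 and 228.13 RPKM), Csf3 (the cytokine G-CSF; 4.07 and 18.07 RPKM) and Tnip1, whose protein restrains NF-κB with A20 (53.01 and 222.86 RPKM). Tnf had a log2 ratio of 1.64 and Il1b one of 1.08. Tnfaip3, which encodes A20, an inhibitor of the pathway, stood at 40.23 and 75.77 RPKM, and the adhesion gene Icam1 at 22.82 and 32.35 RPKM, neither of them called. The gene called lower was Csf1 (17.68 and 8.69 RPKM), which lay at the edge of the rule. The counting interval of its log2 ratio of -1.02, -1.09 to -0.96, includes the 2-fold limit. After rescaling to TPM its log2 ratio was -0.98 and the call was lost.

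**Figure D5:**
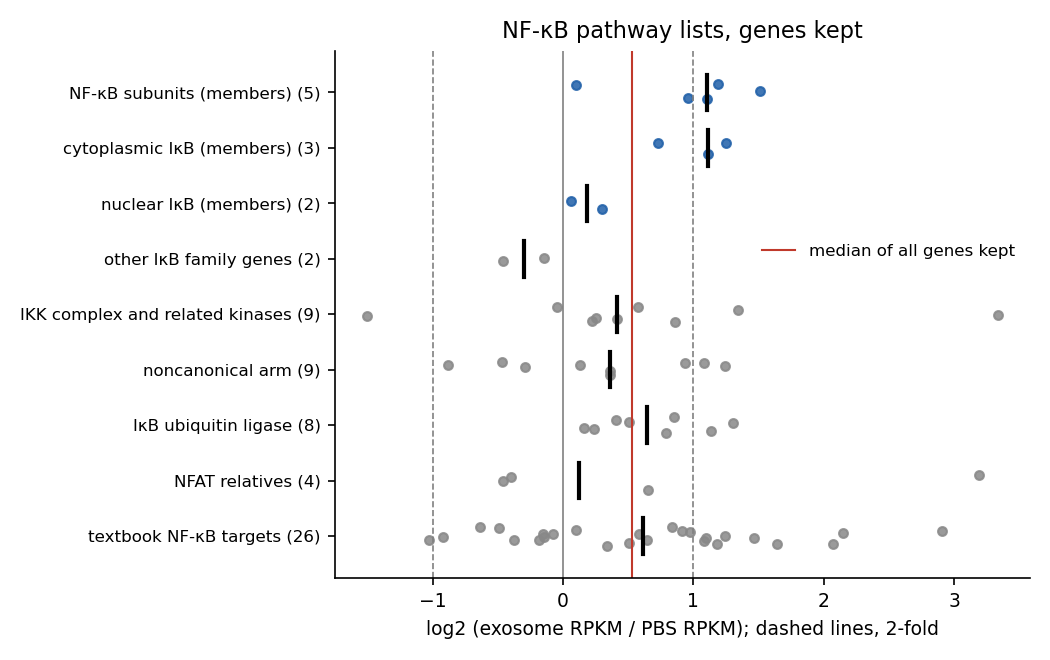
Log2 ratio of exosome to PBS RPKM for each gene kept in 9 lists (points, number of genes in brackets), with the list median as a black bar and the median of all genes kept, 0.53, as a red line. Medians of the subunits and of the cytoplasmic IκB genes lie at 1.11, and those of the other lists lie between -0.30 and 0.65.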

How the data were processed

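Messenger RNA libraries (TruSeq, sequenced on a HiSeq system) of 1 PBS-treated and 1 SDCSC exosome-treated neutrophil culture were analysed. The authors trimmed low-quality reads, used CLC Genomics Workbench, and deposited 1 RPKM value per feature and library. The submitters' processing notes name mm10. Annotation, strand setting, treatment of reads shared between genes and scaling between libraries are not given in the sources used here. RPKM of 0.01 and above was deposited with at most 2 decimals, and a spreadsheet left 25 features with a date serial for a name, which stayed in all counts.

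Commas within numbers were removed, and ratios of deposited RPKM were formed without a pseudocount. RPKM values are not counts and no count model was fitted. Mapped reads were estimated as the commonest total at which an RPKM below 0.01 equals 1 read, with the longest GENCODE M21 transcript of the symbol as length. This length may differ from that used by the authors. At the median length 3 reads equal 0.0136 RPKM in PBS and 0.0114 in exosome. Counting intervals (95%) of a ratio are exact Clopper-Pearson intervals of the estimated reads, and those of differences and sums use the delta method with Poisson errors. They leave out variation between cultures and animals. Calculations used Python 3.11.15, numpy 2.4.6, pandas 2.3.3 and scipy 1.17.1. A test on simulated reads used the same transcript lengths as the estimate, so it does not test those lengths. Of the features below 0.01 RPKM used to estimate depth, 245 of 918 in PBS and 287 of 1064 in exosome stood at or near the estimated total. The 10 genes, the pathway and marker lists and the alternatives were chosen with earlier results of these data known. All 10 genes were named whatever their change, as were a set of other pathway genes. All genes of the pathway lists that were kept and changed at least 4-fold were also named. Genes of the lists that were not kept were left out of this rule, among them Nos2 (0.09 RPKM in PBS and 1.56 RPKM in exosome). Csf1, Map3k7, Tnfrsf1b, Rbx1 and Ube2d1 were named after their values were seen, and so were the markers. Positions and promoters are those of RefSeq on GRCm38.p6. Protein sequences were not used here. Alternatives were other scalings, filters, pseudocounts and calls.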

Additional observations from a re-analysis of the deposited data

How the results depend on the processing

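With 1 library per treatment no replicate could be left out, and no paired analysis was possible because the groups hold 1 library each. The number of genes at least 2-fold higher, 5 as deposited, was 0 under median centring, 0 after removal of a trimmed mean (30% of ratios and 5% of levels at each end) and 0 at a required ratio of 4. It was 3 under level-dependent centring and 3 with S100a8 and S100a9 left out of the total. It was 6 after rescaling to TPM, where Rel passed 2-fold, and 5 with an RPKM of at least 1, with a pseudocount of 0.25 or 1, and with the whole counting interval required past 2-fold. No gene of the 10 was 2-fold lower under any of these. The share of all genes called under each stands beside these counts in the Results. The median log2 ratio of the 10, 1.03 as deposited, became 0.51 under median centring, 1.08 as TPM, 0.49 with the trimmed mean removed, 0.74 under level-dependent centring and 0.86 without S100a8 and S100a9. Median centring and the trimmed mean took 0.53 and 0.54 from every gene, and both assume that most genes are unchanged, which 2 libraries cannot show. Of 80 values of single genes recomputed, 47 left the counting interval of the deposited value, and in no gene called higher did the sign turn. The 80 include the values under the filter at 1 RPKM, which all 10 genes passed and which could not change a ratio. Rela, Nfkbiz and Bcl3, which were not called, fell below 0 under median centring and the trimmed mean. Ratios within a library do not change when a library is multiplied by 1 factor, but do under level-dependent centring. The other pathway genes called, 15 higher and 2 lower of 57 as deposited, were 6 and 6 under median centring, 6 and 9 with the trimmed mean removed, and 10 and 5 under level-dependent centring. They were 16 and 1 after rescaling to TPM, and 11 and 4 with S100a8 and S100a9 left out of the total. Over all genes kept, the shares higher and lower were 31.5% and 5.62% as deposited and 16.8% and 13.2% under median centring. These shares were 16.5% and 13.6% with the trimmed mean removed, and 12.6% and 13.6% under level-dependent centring. As TPM the shares were 33% and 5.16%, and without S100a8 and S100a9 25.8% and 7.43%. The log2 change of IκB over subunits, 0.16, became -0.13 with the nuclear IκB genes added and -0.049 without Nfkbia.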
